A study of Rattus norvegicus with 145 samples.

Results

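The respiratory chain of the inner mitochondrial membrane and the ATP synthase are built from many subunits, and most of these are encoded in the nucleus. The genes described here are the rows of the count tables whose symbols begin with Nduf and a letter of the a, b, c, s or v series (complex I), are Sdha, Sdhb, Sdhc or Sdhd (complex II), or begin with Uqcr (complex III), Cox4 to Cox8 (complex IV) or Atp5 (complex V). This rule, which looks only at symbols, took 80 of 17337 genes, with 35 in complex I, 4 in complex II, 8 in complex III, 16 in complex IV and 17 in complex V. Ndufa4 is grouped here by its symbol with complex I, although the protein is now placed in complex IV. The rule also takes Cox7a2l, Atp5s and Atp5sl, which carry subunit names but are not classical subunits.

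Complex I passes electrons from NADH to coenzyme Q, and complex II passes those of succinate, a step it shares with the TCA cycle. Complex III hands them on to cytochrome c and complex IV to oxygen, and complex V uses the proton gradient built along the way to make ATP. The liver relies on this machinery for gluconeogenesis, urea synthesis and the oxidation of fatty acids, and hepatocytes hold many mitochondria.

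Liver RNA came from the left lobe of 145 rats in 29 groups of 5, each rat a separate animal, killed after an overnight fast. All of them were Wistar rats dosed daily by gavage, and the control groups received the water vehicle only. Experiment A used Hsd:WI males of 9 to 10 weeks, given 0, 30, 100, 300 or 1000 mkd (mg/kg/day) acetamide for 7 days and examined on day 8. Experiment B used Crl:WI males and females of 8 to 10 weeks, given 0, 300, 500, 750, 1000 or 1500 mkd for 7 or 28 days and examined on day 8 or day 29. The 5 control males of day 29 carry the exposure label of the other experiment, although their strain and titles are those of experiment B. Here they were treated as belonging to experiment B, and every comparison of males day 29 rests on them.

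Reads counted on genes ranged from 15449716 to 39986531 per rat. The 10 hepatocyte markers checked were all tested in each of the 5 data sets and summed to 24.5 to 29.1% of gene reads in the control rats of experiment A. In whole liver, fewer cells of a type and less RNA per cell cannot be told apart. Of the 80 subunit genes, the filter on low counts passed 73 in experiment A and, in experiment B, 72 for either sex on day 8 and 73 for either sex on day 29. In all 5 data sets 72 were tested, and 7 were tested in none. Atp5f1 and Ndufa1 had 0 counts in every rat, and the counts cannot tell a silent gene from one whose reads were not counted. The tissue-restricted or inducible forms Cox6a2, Cox8b and Ndufa4l2, the germ cell form Cox8c and the copy Cox6c-ps1 had at most 7, 6, 15, 1 and 1 counts in any rat. Cox7a1, Cox6b1, Ndufa3, Ndufa13, Ndufb1 and Ndufc1 are not among the 80 genes, which therefore do not cover every nuclear subunit. Neither these genes nor the subunits encoded by the mitochondrial genome were analysed here.

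The upstream bases of 4 genes whose levels are followed below are shown because nuclear respiratory genes are known to share a few promoter motifs. They come from the RefSeq promoters of build GRCr8, which hold 68 of the 80 genes, while the counts were made on Rn6. Each line gives the 250 bases before the annotated start on the gene's own strand, in lower case, with matches on either strand in capitals. The letters searched were GCGCATGC (reverse GCATGCGC) for the core of NRF1, CCGGAAG (reverse CTTCCGG) for the ETS family that includes GABPA, and AAGATGGC (reverse GCCATCTT) for YY1.
Uqcrc2, chr1:184598990-184599239, plus strand: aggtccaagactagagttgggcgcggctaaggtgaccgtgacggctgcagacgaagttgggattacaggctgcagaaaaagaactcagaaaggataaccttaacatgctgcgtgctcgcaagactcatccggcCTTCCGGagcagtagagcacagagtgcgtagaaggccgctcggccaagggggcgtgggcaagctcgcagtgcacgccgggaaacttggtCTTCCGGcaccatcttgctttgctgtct
Sdhb, chr5:158547684-158547933, plus strand: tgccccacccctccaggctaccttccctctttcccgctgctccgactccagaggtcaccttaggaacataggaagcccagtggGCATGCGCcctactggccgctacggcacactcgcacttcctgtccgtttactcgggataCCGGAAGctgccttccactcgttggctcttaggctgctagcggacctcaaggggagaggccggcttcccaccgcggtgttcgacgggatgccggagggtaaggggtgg
Atp5i (RefSeq name Atp5me), chr14:1464610-1464859, plus strand: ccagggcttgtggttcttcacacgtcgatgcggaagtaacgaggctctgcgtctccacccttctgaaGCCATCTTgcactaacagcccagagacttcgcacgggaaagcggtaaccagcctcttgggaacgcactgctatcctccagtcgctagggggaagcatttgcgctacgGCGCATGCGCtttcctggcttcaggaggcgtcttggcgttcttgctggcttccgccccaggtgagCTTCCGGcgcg
Sdha, chr1:30764303-30764552, plus strand: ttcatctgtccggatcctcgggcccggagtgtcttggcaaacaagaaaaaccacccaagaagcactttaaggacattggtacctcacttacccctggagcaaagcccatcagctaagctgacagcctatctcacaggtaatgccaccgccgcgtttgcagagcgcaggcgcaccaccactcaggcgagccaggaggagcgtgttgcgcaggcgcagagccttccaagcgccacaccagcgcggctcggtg

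The Uqcrc2 window held the ETS letters 117 and 28 bases before the start. The Sdhb window held the NRF1 letters at 167 and the ETS letters at 108 bases, and that of Atp5i held overlapping NRF1 matches at 76 and 74 bases, YY1 letters at 183 and ETS letters at 11. None of the 3 motifs matched in the Sdha window, which says only that these letters are not in it. Over the 68 subunit genes with a sequence, the NRF1 letters occurred in 13.2% of upstream windows, against 2.2% of all 33469 RefSeq promoters and 4.49% of the 9146 tested genes that could be matched. The ETS letters occurred in 26.5%, against 7.27% and 15%, and the YY1 letters in 2.94%, against 1.63% and 2.22%. With the first 50 transcribed bases included, the YY1 share was 22.1%, against 3.17% and 5.42%. These are letter matches and not shown to be binding sites.

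Subunit transcripts were compared first between the dose groups and vehicle of experiment A, in which the dose range was sought. At 1000 mkd, 45 of the 73 tested subunit genes fell at an adjusted p of at most 0.05 and 0 rose, while 30.7% of all genes were called and 14.2% were called lower. The falls covered all 5 complexes, with 20 of 33 genes of complex I, 3 of 4 of complex II, 6 of 8 of complex III, 6 of 12 of complex IV and 10 of 16 of complex V. The median change of the 73 genes was -0.46 on the log2 scale, against 0.00 for all genes, and all 73 values were below 0. By complex the medians were -0.49, -0.53, -0.51, -0.39 and -0.44 from I to V. These values are relative to the typical gene, since TMM scaling holds the middle of the expression distribution level between rats. When counts were scaled by library size only, 9 subunit genes were called higher and 2 lower, with a median of 0.05 for the subunit genes and 0.58 for all genes. The share of all genes called under that scaling is not given here, so these counts cannot be set against it.

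Both scalings describe the same reads. The 80 genes summed to 0.762 to 0.858% of gene reads in the 5 control rats and to 0.793 to 0.908% at 1000 mkd, and these ranges overlapped. TMM factors were 0.856 to 0.976 in controls and 1.06 to 1.91 at 1000 mkd. The hepatocyte list summed to 24.5 to 29.1% of gene reads in controls and to 14.8 to 26.3% at 1000 mkd, and these ranges overlapped too. Of its 10 genes 5 fell, among them Alb (-0.91), Apob (-0.88), Fgb (-0.77) and Ttr (-0.98). The same livers had 15 of 15 cell cycle genes, 8 of 11 macrophage markers, 9 of 10 T and NK cell markers and 3 of 6 endothelial markers higher, and 4 of 7 erythroid markers lower, beside 16.5% of all genes higher and 14.2% lower. The part of these cell types in the subunit values was not tested.

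**Figure D1:**
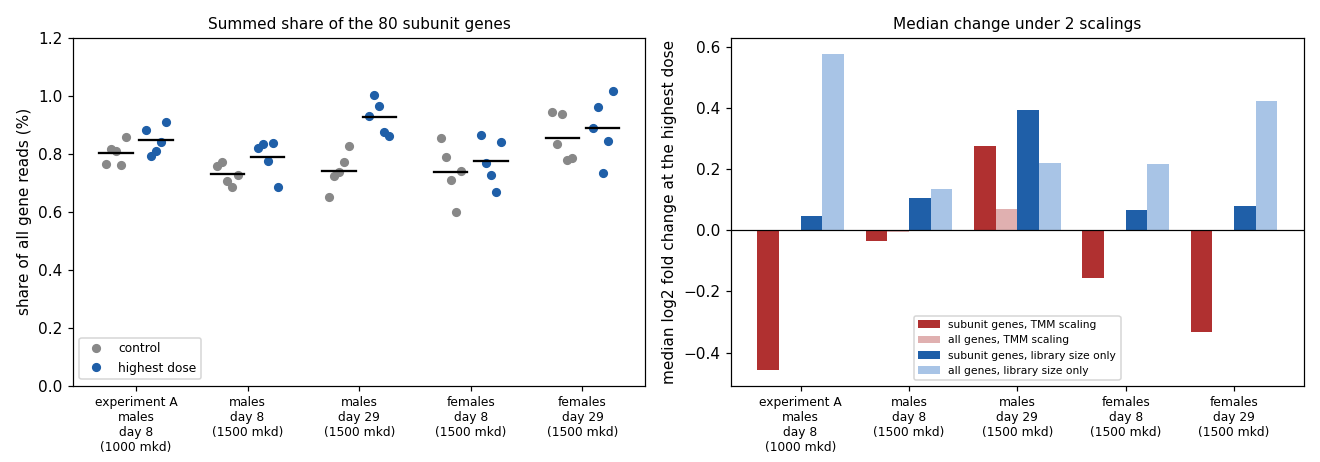
Left, the summed share of the 80 subunit genes in all gene reads (%), for each control rat (grey) and each rat of the highest dose (blue), with the group mean as a line. Right, the median log2 fold change at the highest dose of the tested subunit genes and of all tested genes under TMM scaling (red) and under library size only (blue). In experiment A the subunit median was -0.46 under TMM scaling and 0.05 under library size only, where the median of all genes was 0.58, and in females day 29 the corresponding values were -0.33, 0.08 and 0.42.

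Ndufb5, an accessory subunit of the membrane arm of complex I, measured 65.6, 86.1, 75.8, 82.8 and 83.9 CPM (counts scaled to a common library size with the TMM factor) in the control rats of experiment A. At 1000 mkd it measured 62.4, 26, 59.5, 37.8 and 47.6 CPM. Every treated rat lay below every control rat, with the rat of 26 CPM lowest, and it fell by 0.76 on the log2 scale (SE 0.17, adjusted p = 0.00271). At 30, 100 and 300 mkd the means of Ndufb5 were 88.4, 81.6 and 80.2 CPM, against 78.8 CPM in controls.

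Ndufa6, an accessory subunit of the LYR family, had the largest fold change of the 45 genes. It measured 128, 206, 160, 170 and 256 CPM in controls and 128, 42.7, 136, 80.9 and 82.8 CPM at 1000 mkd, a value 1.96-fold lower (log2 -0.97, SE 0.26, adjusted p = 0.00691). The treated rat at 136 CPM lay within the control range. Ndufa6 and Ndufb5 were the 2 subunit genes that were also lower under library size only, at -0.50 (adjusted p = 0.0216) and -0.26 (adjusted p = 0.0452). In all, 9 complex I genes met the fold change criterion of 1.5 as well as the adjusted p, among them Ndufa2, Ndufa5, Ndufb4, Ndufb8, Ndufs3 and Ndufv2 beside those just described. Across the 5 complexes 16 genes did so, while 7.45% of all genes were called lower by both criteria.

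In succinate dehydrogenase the catalytic flavoprotein Sdha measured 286, 294, 302, 322 and 273 CPM in controls and 240, 125, 253, 191 and 189 CPM at 1000 mkd. Its groups did not overlap, and it fell by 0.56 (SE 0.14, adjusted p = 0.00472), against -0.06 (adjusted p = 0.597) under library size only. The iron-sulfur subunit Sdhb fell by 0.60 (SE 0.16, adjusted p = 0.00766) and the membrane anchor Sdhd by 0.50 (SE 0.16, adjusted p = 0.0212), although under library size only Sdhd stood at 0.01. The other anchor, Sdhc, was at -0.25 (SE 0.12, adjusted p = 0.133) and did not pass, and under library size only it was called higher at 0.28 (adjusted p = 0.0065). Sdhb, Sdha and Sdhd were among 14 subunit genes with every treated rat below every control rat, while 7.22% of all genes had that order.

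Complex III held 4 of those 14 genes. Uqcrfs1, the Rieske iron-sulfur protein, measured 153, 192, 158, 155 and 170 CPM in controls and 127, 87.4, 134, 105 and 114 CPM at 1000 mkd. It fell by 0.54 (SE 0.12, adjusted p = 0.00252) with no overlap, and stood at -0.00 under library size only. The core protein Uqcrc2, with its pair of ETS matches, had 172, 214, 179, 192 and 214 CPM in controls and 152, 86.6, 151, 123 and 134 CPM at 1000 mkd, again without overlap, and fell by 0.59 (SE 0.16, adjusted p = 0.00718). Uqcrq, a small subunit near the coenzyme Q site, fell by 0.61 (adjusted p = 0.0187).

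Among complex IV genes Cox7c, a small structural subunit, had the lowest p. It measured 79.4, 126, 108, 122 and 117 CPM in controls and 90.1, 42.1, 93.1, 54.4 and 62 CPM at 1000 mkd. The groups overlapped at the lowest control rat, and Cox7c fell by 0.69 (SE 0.20, adjusted p = 0.0139). Cox4i1, the widespread form of a regulatory subunit, fell by 0.39 (SE 0.15, adjusted p = 0.0469), while Cox4i2, its low-oxygen form, was at 0.211 to 0.459 CPM in controls and 0.0801 to 0.397 CPM at 1000 mkd (log2 -0.24, adjusted p = 0.714). Under library size only Cox4i1 stood at 0.11 and Cox4i2 at 0.31. Cox8a, the liver form of that subunit, fell by 0.42 (adjusted p = 0.0156), against 0.12 under library size only. Cox6a1, also the liver form, was at -0.20 (adjusted p = 0.242) and was called higher under library size only, at 0.33 (adjusted p = 0.00675). Cox7a2 had few counted reads throughout, at 0.399 to 0.984 CPM in controls and 0.425 to 0.828 CPM at 1000 mkd. It did not pass (-0.24, adjusted p = 0.532, and 0.29 under library size only), and whether its reads were lost in alignment or counting was not tested. Ndufa4 fell by 0.57 (adjusted p = 0.0458).

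In the ATP synthase the genes Atp5g1, Atp5g2 and Atp5g3 encode the same mature rotor ring subunit c. Atp5g1 measured 70.2, 68.2, 71.1, 51.8 and 55.7 CPM in controls and 57.3, 30.7, 48.6, 33.2 and 42.8 CPM at 1000 mkd. A single treated rat lay within the control range, and Atp5g1 fell by 0.58 (SE 0.14, adjusted p = 0.00423). Atp5g2 fell by 0.57 (adjusted p = 0.018) and Atp5g3 by 0.35 (adjusted p = 0.029), the last at 0.18 under library size only. The membrane subunits f (Atp5j2, -0.73) and g (Atp5l, -0.66) met both criteria, as did subunit epsilon of the central stalk (Atp5e, -0.70). Subunits alpha and beta did not pass, with Atp5a1 at -0.32 (adjusted p = 0.0564) and Atp5b at -0.28 (adjusted p = 0.0871).

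At 30, 100 and 300 mkd edgeR called 0 subunit genes, and DESeq2 also called 0, while of all genes edgeR called 0% at each of these doses and DESeq2 0, 0 and 0.00883%. At an unadjusted p under 0.05 there were 1, 0 and 0 subunit genes, beside 2.86, 2.05 and 1.93% of all genes. At 30 mkd, 69 of 73 values were above 0, with a median of 0.15. A linear term in dose was called lower for 64 of the 73 genes and higher for 0, while 22.4% of all genes had a lower trend. It rested on the highest dose, since 0 genes were called without it. Under library size only 13 genes had a higher and 6 a lower trend, with a median of 0.03 against 0.62 for all genes. The share of all genes with a called trend under that scaling is not given here.

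The count of 45 at 1000 mkd depended on single rats. It was 27 without control replicate 2, 23 without 1000 mkd replicate 2 and 24 without 1000 mkd replicate 4, and it reached 58 without 1000 mkd replicate 1. The shares of all genes called in these smaller fits are not given here, so the changes in the count cannot be set against them. The mean log2 CPM of the tested subunit genes was 5.89, 6.18, 5.97, 5.98 and 6.06 in the 5 control rats and 5.81, 5.01, 5.88, 5.44 and 5.52 at 1000 mkd. The rat at 5.01, replicate 2, also had the highest TMM factor (1.91) and the smallest hepatocyte share (14.8%).

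**Figure D2:**
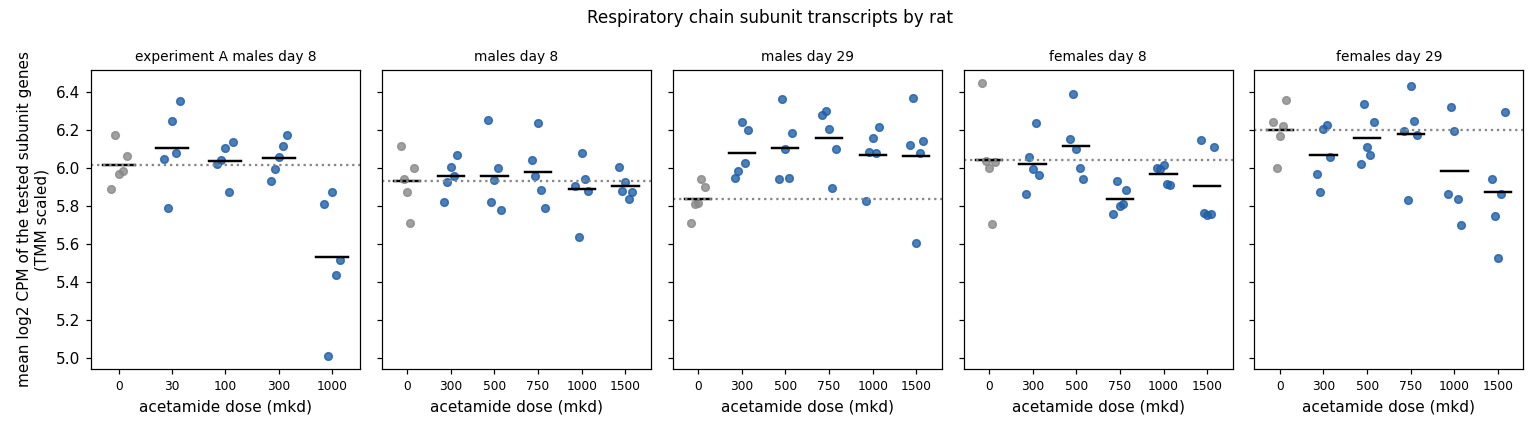
Mean log2 CPM (TMM scaled) of the tested subunit genes in each rat, by acetamide dose in mkd, with the control mean as a dotted line and a panel for each data set. In experiment A the rats at 1000 mkd lay between 5.01 and 5.88 and the controls between 5.89 and 6.18, while under library size only the median change of the subunit genes was 0.05.

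Genes that serve the chain were followed as lists, chosen with earlier results of these data known, and their counts stand beside 14.2% of all genes lower and 16.5% higher. At 1000 mkd in experiment A, 15 of 35 assembly factors fell and 0 rose, with Ttc19 (-0.76), which acts on complex III, Ecsit (-0.47), which acts on complex I, the complex V factor Tmem70 (-0.57) and Bcs1l (-0.65), which inserts the Rieske protein. Of 12 genes of coenzyme Q synthesis 6 fell, with Pdss2 (-0.65), Coq2 (-0.51) and Coq9 (-0.58). Of 12 TCA cycle genes 6 fell, with Suclg2 (-0.79), Sucla2 (-0.70), Fh (-0.72) and Idh3g (-0.50), and Idh3a (0.38) rose. Carriers and subunits outside the symbol rule gave 5 lower and 2 higher of 10, with the electron transfer flavoprotein genes Etfdh (-0.91), Etfb (-0.79) and Etfa (-0.63) lower and the ATP synthase inhibitor Atpif1 (0.58) higher. Of 17 regulators of mitochondrial biogenesis, 3 fell, namely Tfb2m (-0.85), Polg2 (-1.29) and Tfam (-0.57), and Perm1 (2.01) rose.

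Of 10 genes of mitochondrial import 4 fell, and of 66 genes of the mitochondrial ribosome 37 fell and 0 rose, with a median of -0.32. The cytosolic ribosome, which is not mitochondrial, had 25 of 72 genes lower and 0 higher, with a median of -0.40. These lists are on the TMM scale too.

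In experiment B the same question was asked at 5 doses for each sex and duration, and the doses of a data set share their controls. In males day 8, edgeR called 0 of 72 subunit genes at 300, 500, 750, 1000 and 1500 mkd, and DESeq2 called 0 at each. Among all genes edgeR called 0% at the first 4 of these doses and 0.186% at 1500 mkd, and DESeq2 called 0, 0.0177, 0, 0 and 1.88%. At an unadjusted p under 0.05 there were 0, 0, 3, 0 and 3 subunit genes, beside 1.41, 3.32, 7.65, 4.7 and 12.6% of all genes. The median at 1500 mkd was -0.03, against 0.00 for all genes, and 0.11 under library size only. Ndufa10l1, a near-identical copy of the complex I gene Ndufa10, measured 48.2, 47.2, 41.3, 43 and 48.9 CPM in controls and 38.2, 33.6, 37.2, 34.5 and 45.5 CPM at 1500 mkd. At 1500 mkd 4 rats lay below every control rat, and its change of -0.27 (SE 0.10, adjusted p = 0.196) did not pass. Reads of Ndufa10 and Ndufa10l1, and of Cox6c and its pseudogene, may have been split between the copies. The dose trend was called for 0 subunit genes by edgeR, with 5 at an unadjusted p under 0.05 beside 17.9% of all genes, and for 1 by DESeq2, beside 4.59%.

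In females day 8, 0 of 72 subunit genes were called by edgeR at any of the 5 doses, while 0.0087, 0.0174, 0.0174, 1.52 and 0.757% of all genes were called. Unadjusted p under 0.05 was reached by 0, 1, 17, 4 and 2 subunit genes, beside 2.57, 6.45, 14, 13.5 and 14.7% of all genes. DESeq2 called 1 at 750 mkd and 0 at the other doses, beside 0.0087, 0.113, 2.41, 2.72 and 3.55% of all genes. At 750 mkd, 70 of 72 values were below 0 with a median of -0.24 (0.08 under library size only), and at 1500 mkd, 67 of 72 with a median of -0.16 (0.07 under library size only). Sdha was at -0.42 (SE 0.12, adjusted p = 0.104) at 750 mkd and at -0.26 (SE 0.12, adjusted p = 0.318) at 1500 mkd. The lowest p of the other complexes at 1500 mkd belonged to Ndufs8 (-0.28, adjusted p = 0.281), Uqcrfs1 (-0.22, adjusted p = 0.419), Cox8a (-0.29, adjusted p = 0.372) and Atp5b (-0.20, adjusted p = 0.482). The dose trend was called for 0 subunit genes by edgeR and by DESeq2, which called it for 7.42% of all genes, with 20 at an unadjusted p under 0.05 beside 20.8% of all genes.

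In males day 29 the medians of the subunit genes lay above 0 at every dose. They were 0.26, 0.30, 0.34, 0.27 and 0.28 from 300 to 1500 mkd, against -0.01, 0.04, 0.05, 0.05 and 0.07 for all genes, with 71, 69, 68, 67 and 67 of 73 values above 0. At an unadjusted p under 0.05 there were 33, 40, 54, 30 and 39 subunit genes, beside 5.66, 13.7, 22.9, 26.2 and 27% of all genes. After adjustment 0, 0, 3, 0 and 3 genes rose, while 0, 0, 1.21, 4.48 and 7.34% of all genes were called. DESeq2 called 0, 0, 16, 4 and 6 subunit genes, of which 1 at 1000 mkd and 1 at 1500 mkd were lower, beside 0.0266, 0.372, 5.84, 9.78 and 10.9% of all genes. All these comparisons share the 5 control males. The share of the 80 genes in gene reads was 0.649 to 0.825% in those controls and 0.861 to 1.004% at 1500 mkd, so that the treated males all lay above the controls. Under library size only 43 genes were called higher at 1500 mkd, with a median of 0.39 against 0.22 for all genes. The share of all genes called higher under that scaling is not given here, so the 43 cannot be set against it.

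The genes that rose were Atp5i, Uqcrb and Uqcr11 at both 750 and 1500 mkd, against the same control males. At 1500 mkd 4.36% of all genes were called higher, a share near that of the subunit genes. Atp5i, subunit e of the ATP synthase, with the NRF1, YY1 and ETS letters upstream, measured 42, 45.6, 44.4, 55.7 and 47.7 CPM in controls and 70, 88.1, 47.9, 61.6 and 62.6 CPM at 1500 mkd. All treated rats but the lowest lay above every control rat, and it rose by 0.49 (SE 0.13, adjusted p = 0.0234). Its means at 300, 500, 750 and 1000 mkd were 58.8, 63.7, 69.6 and 61.1 CPM, against 47.1 CPM in controls.

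Uqcrb, a complex III subunit that contacts coenzyme Q, measured 29, 33.1, 33.6, 36 and 35.9 CPM in controls and 45.6, 54, 36.1, 40.9 and 45.8 CPM at 1500 mkd. The treated males all lay above the controls, if barely so for the lowest, and it rose by 0.41 (SE 0.11, adjusted p = 0.0295). Uqcr11, the smallest complex III subunit, had 57.1, 61.7, 61.7, 72.2 and 72 CPM in controls and 91.1, 104, 62.9, 93.9 and 92.6 CPM at 1500 mkd, a rise of 0.45 (SE 0.13, adjusted p = 0.0316). Ndufs4, a late-added complex I subunit, was the other gene besides Uqcrb with complete separation. Of all genes 2.86% had that order, a share near that of the subunit genes. The change of Ndufs4, 0.38 (adjusted p = 0.0521), did not pass. Neither did the isoform genes Cox4i1 (0.25), Cox6a1 (0.28), Cox8a (0.33), Ndufa4 (0.36), Atp5g1 (0.45), Atp5g2 (0.25) and Atp5g3 (0.18), with adjusted p from 0.0815 for Atp5g1 to 0.301 for Atp5g3. Cox7c measured 84.6, 86, 89.3, 87.7 and 90.3 CPM in controls and 122, 150, 65.7, 131 and 122 CPM at 1500 mkd, so that 4 treated rats lay above and 1 lay below every control rat (0.43, adjusted p = 0.0743).

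Replicate 3 at 1500 mkd was the lowest rat for each of these 3 genes and had the lowest subunit mean of its group, 5.61 log2 CPM against 6.08 to 6.37 in the other 4. It also had a TMM factor of 1.49, against 0.97 to 1.08, and a cell cycle mean of 5.89 log2 CPM, against 0.75 to 2.50. The study left this animal out when it modelled the benchmark dose of its proliferation marker. Without it 24 genes were called at 1500 mkd, 23 of them higher, and the median was 0.31, against -0.00 for all genes. The count was 0 without control replicate 2, control replicate 3, 1500 mkd replicate 1 or 1500 mkd replicate 2. It was 1 without control replicate 1, where that gene was lower, and 1 without control replicate 4 or 1500 mkd replicate 5. At 750 mkd it was 26 without 750 mkd replicate 4 and 0 without any other single rat, and at 1000 mkd it was 11 without 1000 mkd replicate 1. With only the control and the tested group in the fit it was 0 at 750 and at 1500 mkd. The shares of all genes called in these smaller fits are not given here.

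A linear dose term in males day 29 was called for 7 genes of mixed sign. Uqcr11 (0.26), Atp5i (0.26) and Uqcrb (0.22) rose per 1000 mkd, while Ndufa10l1 (-0.32, adjusted p = 0.00296), Sdha (-0.27, adjusted p = 0.0121), Ndufs1 (-0.23, adjusted p = 0.0133) and Uqcrc2 (-0.24, adjusted p = 0.032) fell, beside 13.9% of all genes higher and 10.6% lower. Under library size only 56 genes had a higher and 2 a lower trend, with a median of 0.25 against 0.17 for all genes. For these counts too, the share of all genes under that scaling is not given here. Sdha measured 239, 280, 273, 276 and 239 CPM in controls and 202, 239, 163, 236 and 236 CPM at 1500 mkd, where the comparison with controls did not pass (-0.28, adjusted p = 0.144). At 300 mkd Sdha was at 0.16, so that its value crossed 0 between the lowest and the highest dose. Ndufa10l1 went from 0.19 at 300 mkd to -0.33 (adjusted p = 0.062) at 1500 mkd.

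Few genes of the other mitochondrial lists were called in males day 29 at 1500 mkd. Of 35 assembly factors 0 were called, as were 0 of 12 TCA cycle and 0 of 12 coenzyme Q genes, and 3 of 66 mitochondrial ribosome genes rose, beside 4.36% of all genes higher and 2.98% lower. Atpif1 rose by 0.76, the import chaperone gene Hspa9 (-0.85) fell, and 2 regulators fell, namely Gabpa (-0.42), which encodes an ETS factor, and Polg (-0.99), the mitochondrial DNA polymerase. Of 15 cell cycle genes 13 rose, beside 0 of 11 macrophage markers and 1 hepatocyte marker each way.

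In females day 29 the subunit genes were lower at 1500 mkd on the TMM scale. At 300, 500 and 750 mkd edgeR called 0 of 73, with 2, 3 and 4 at an unadjusted p under 0.05 beside 3.49, 11.4 and 15.6% of all genes, and DESeq2 called 0, 0 and 2, beside 0, 0.62 and 1.78%. At 1000 mkd 2 genes fell, Ndufa10l1 (-0.38, SE 0.09, adjusted p = 0.0319) and Uqcrc2 (-0.53, SE 0.12, adjusted p = 0.0296), and at 1500 mkd 21 fell and 0 rose. Among all genes 0, 0.0437, 0.21, 1.91 and 19.4% were called at the 5 doses, and 8.19% were called lower at 1500 mkd. At 1000 mkd the share of all genes was near that of the subunit genes, whose median was -0.19 (0.07 under library size only). The count of 2 at 1000 mkd was 0 under library size only, with only the control and 1000 mkd groups fitted, and without control replicate 1, 4 or 5 or 1000 mkd replicate 3 or 4. It was 1 without 1000 mkd replicate 2 or 5, and 4 and 5 without control replicates 2 and 3. The shares of all genes called in these alternative fits are not given here. The 21 genes at 1500 mkd were 8 of complex I, 3 of complex II, 4 of complex III, 1 of complex IV and 5 of complex V. The median at 1500 mkd was -0.33, against 0.00 for all genes, while under library size only it was 0.08, against 0.42 for all genes, and 2 genes were called, both higher. The share of all genes called at 1500 mkd under library size only is not given here, so the 2 cannot be set against it.

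The share of the 80 genes in gene reads was 0.779 to 0.944% in control females of day 29 and 0.734 to 1.018% at 1500 mkd, and these ranges overlapped. TMM factors were 0.735 to 1.02 in controls and 1.03 to 1.45 at 1500 mkd. Beside the subunit genes, 15 of 15 cell cycle genes, 4 of 11 macrophage markers and 2 of 9 T and NK cell markers rose, and 3 of 10 hepatocyte markers fell, namely Alb (-0.98), Cps1 (-0.74) and Tf (-0.54), while Apoa1 (0.92) rose, beside 11.3% of all genes higher and 8.19% lower. Their part in the subunit values was not tested.

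Ndufa10l1 had the lowest p of the subunit genes in females day 29. It measured 48.3, 41.9, 37, 47.2 and 46.3 CPM in controls and 32.4, 27.1, 31.6, 35.3 and 31.1 CPM at 1500 mkd. The groups did not overlap, and it fell by 0.49 (SE 0.09, adjusted p = 0.000851), against -0.06 (adjusted p = 0.620) under library size only. Its means at 300, 500, 750 and 1000 mkd were 43, 37.1, 33.1 and 33.8 CPM, against 44.1 CPM in controls. Ndufa6 (-0.64), Ndufb8 (-0.64) and Ndufs5 (-0.71), all accessory subunits of complex I, met the fold change criterion too, as did Uqcrc2 alone outside complex I, and 3.54% of all genes were called lower by both criteria.

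Sdha measured 231, 232, 189, 304 and 288 CPM in control females of day 29 and 193, 137, 154, 206 and 176 CPM at 1500 mkd. At 1500 mkd 3 rats lay below every control rat, and it fell by 0.52 (SE 0.12, adjusted p = 0.0047), against -0.09 (adjusted p = 0.437) under library size only. Sdhb fell by 0.46 (adjusted p = 0.0281) and Sdhd by 0.38 (adjusted p = 0.0464), with Sdhd at 0.05 under library size only, while Sdhc was at -0.23 (adjusted p = 0.153). Uqcrc2 had 203, 155, 140, 232 and 256 CPM in controls and 126, 114, 117, 149 and 147 CPM at 1500 mkd. The controls were widely spread and overlapped the treated rats at their lower end, and Uqcrc2 fell by 0.60 (SE 0.12, adjusted p = 0.00179), against -0.15 (adjusted p = 0.239) under library size only.

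Cox7a2l, a factor in the assembly of supercomplexes, was the single gene called in complex IV (-0.41, adjusted p = 0.0143), and it stood at 0.02 under library size only. Cox4i1 (-0.35, adjusted p = 0.152), Cox6a1 (-0.20, adjusted p = 0.256) and Cox8a (-0.36, adjusted p = 0.116) did not pass. In complex V Atp5sl, which despite its name is known as a complex I assembly factor, measured 37.3, 36.8, 37.3, 40.5 and 45.2 CPM in controls and 29.5, 28.2, 24.6, 27.3 and 34.7 CPM at 1500 mkd. Its groups did not overlap, and it fell by 0.45 (SE 0.11, adjusted p = 0.00437), against -0.02 under library size only. Subunits alpha and beta fell as well, with Atp5a1 at -0.36 (adjusted p = 0.0172) and Atp5b at -0.36 (adjusted p = 0.0281). Of the subunit c genes, Atp5g2 fell by 0.47 (adjusted p = 0.0284), while Atp5g1 (-0.32, adjusted p = 0.285) and Atp5g3 (-0.17, adjusted p = 0.462) did not pass. With every treated rat below every control rat there were 5 genes, Atp5b, Atp5sl, Ndufa10, Ndufa10l1 and Uqcrc1, while 2.62% of all genes had that order.

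A lower dose trend was called for 24 of 73 genes and a higher trend for 0 in females day 29, beside 11.9% of all genes with a lower trend. Under library size only 6 genes had a higher trend, with a median of 0.08 against 0.28 for all genes. What share of all genes had a higher trend under that scaling is not given here. The lower trend was steepest in p for Ndufa10l1 (-0.35 per 1000 mkd, adjusted p = 4.74e-05), Uqcrc2 (-0.40, adjusted p = 0.000147) and Sdha (-0.38, adjusted p = 0.000276). The count of 21 at 1500 mkd was 8 without control replicate 1, 12 without control replicate 4, 7 without control replicate 5, 13 without 1500 mkd replicate 1, 7 without 1500 mkd replicate 2, 5 without 1500 mkd replicate 3 and 43 without 1500 mkd replicate 5. With only the control and the 1500 mkd groups in the fit, 1 gene was called. As for the males, the shares of all genes called in these smaller fits are not given here.

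Of the supporting lists in females day 29 at 1500 mkd, 4 of 35 assembly factors fell, with Atpaf2 (-0.34), Ecsit (-0.39), Taco1 (-0.51) and Ttc19 (-0.36). Of 12 coenzyme Q genes 5 fell, with Pdss2 (-0.55), Coq2 (-0.42) and Coq9 (-0.36), and of 12 TCA cycle genes 3 fell, with Fh (-0.81), Sucla2 (-0.45) and Suclg2 (-0.46). Of 66 mitochondrial ribosome genes 7 fell, of 73 cytosolic ribosome genes 9 fell and of 10 import genes 3 fell, beside 8.19% of all genes. The shares of the assembly factors and of both ribosome lists were near that of all genes. Tfam (-0.34), which packages and transcribes mitochondrial DNA, fell, while Ppargc1a (1.10), a coactivator of mitochondrial biogenesis, rose.

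**Figure D3:**
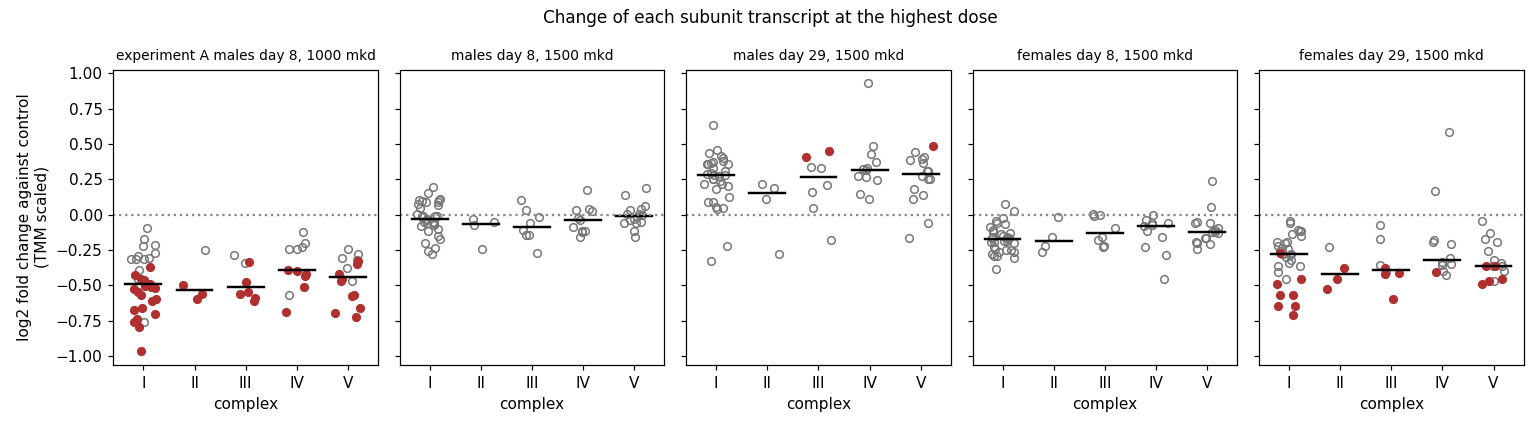
Log2 fold change against control (TMM scaled) of each tested subunit gene at the highest dose of each data set, by complex, with genes called at an adjusted p of at most 0.05 filled in red and the median of each complex as a line. All 73 genes were below 0 in experiment A, 67 of 73 were above 0 in males day 29 and 71 of 73 were below 0 in females day 29, while under library size only the medians of experiment A and of females day 29 were 0.05 and 0.08.

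Set side by side at the highest dose, some subunits held the same sign in all 5 data sets and others did not. In the order experiment A, then males and females of day 8, then males and females of day 29, the changes of Ndufa10l1 were -0.52, -0.27, -0.18, -0.33 and -0.49. Those of Sdha were -0.56, -0.24, -0.26, -0.28 and -0.52, and those of Uqcrc2 were -0.59, -0.27, -0.23, -0.18 and -0.60. For Cox7c they were -0.69, 0.04, -0.07, 0.43 and -0.40, and for Atp5i -0.47, 0.00, -0.06, 0.49 and -0.13. Cox7c and Atp5i stood above 0 in males day 29 and below it in experiment A, whereas Ndufa10l1, Sdha and Uqcrc2 did not change sign. These 5 genes are examples, and the subunit genes of each kind were not counted. All values are on the TMM scale. At the highest dose edgeR called no subunit gene on day 8 of experiment B, and in males day 29 only Atp5i of these 5.

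**Figure D4:**
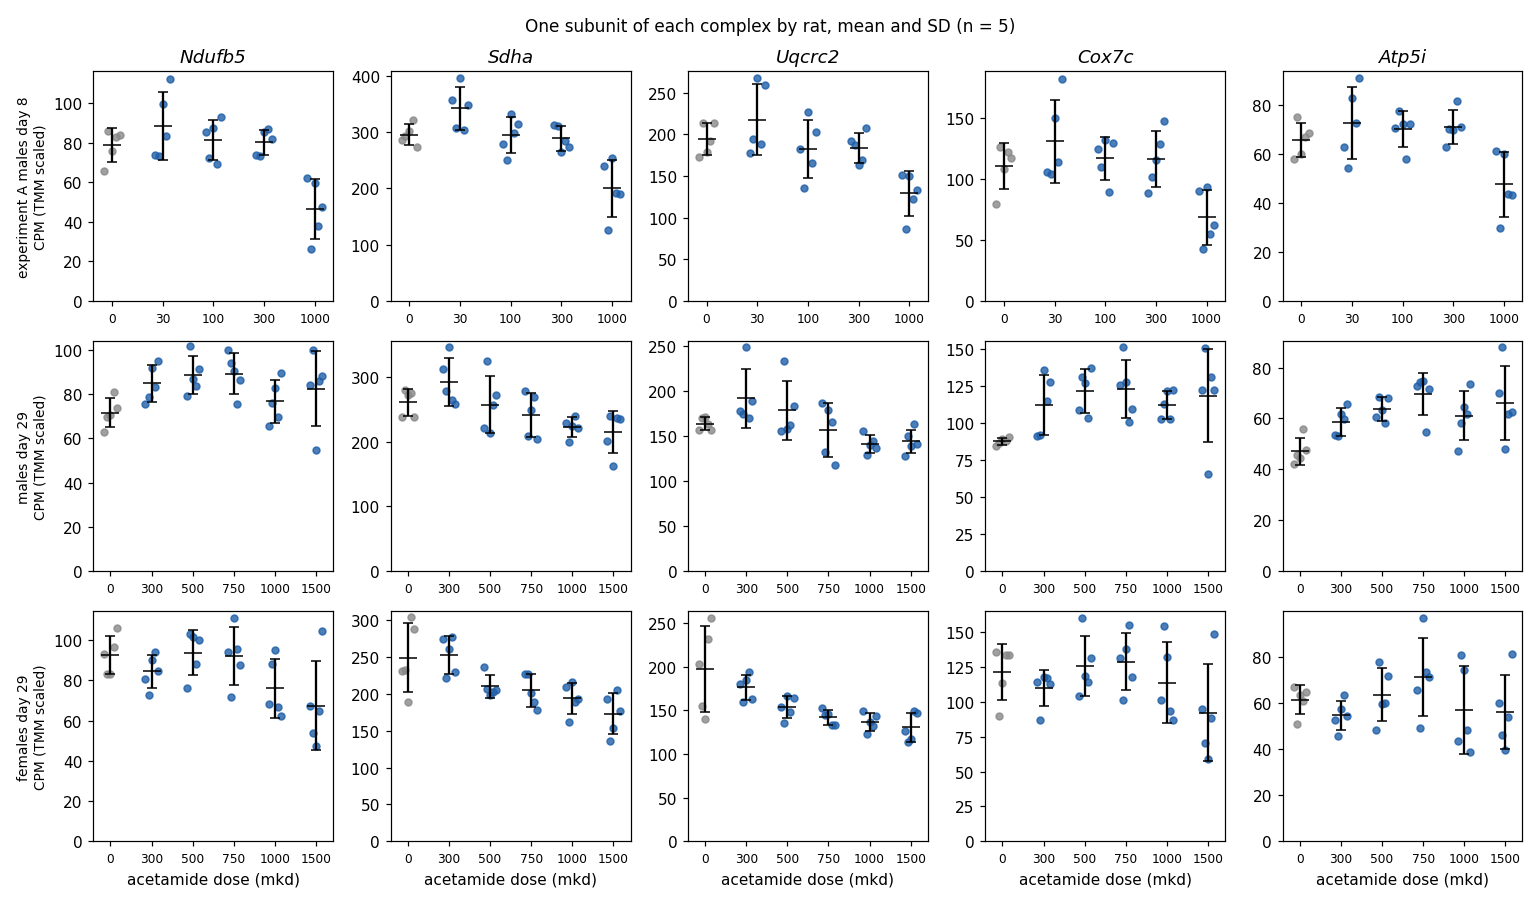
CPM (TMM scaled) of a subunit of each complex, Ndufb5, Sdha, Uqcrc2, Cox7c and Atp5i, in each rat by acetamide dose in mkd, with group mean and SD (n = 5), in experiment A, males day 29 and females day 29. Sdha at 1000 mkd in experiment A lay between 125 and 253 CPM, below all controls. Atp5i in males day 29 lay between 47.9 and 88.1 CPM at 1500 mkd, above the control mean of 47.1 CPM, but its lowest treated rat lay within the control range. Under library size only Sdha in experiment A stood at -0.06 on the log2 scale (adjusted p = 0.597).

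The differences between responses were tested themselves as interactions, and none was called for a subunit gene or for any other gene by edgeR (0% higher and 0% lower in each of the 5 interactions). The interaction with the most subunit genes at an unadjusted p under 0.05 was the female against the male response at 1500 mkd on day 29, with a median of -0.52 over 72 subunit genes, 68 of them below 0, and 49 such genes, beside 11.7% of all genes. The lowest adjusted p, 0.379, was shared by 9 subunit genes, and DESeq2 called 1, beside 0.0615% of all genes. Without replicate 3 of the males at 1500 mkd the median was -0.63 and 0 were called. Ndufs5 had the lowest unadjusted p. It averaged 15.5 ± 3.71 CPM (SD, n = 5) in control males and 23.2 ± 3.57 CPM at 1500 mkd. In females it averaged 26.7 ± 6.66 CPM in controls and 16.2 ± 2.90 CPM at 1500 mkd, a difference of responses of -1.30 (SE 0.28). The vehicle rats of day 29 already differed in Ndufs5, with females 0.80 higher (adjusted p = 0.0325). Its counts ran from 7 to 916 over all rats of the series. On day 8 the sex interaction had 2 genes at an unadjusted p under 0.05, beside 4.11% of all genes, and a median of -0.11, and DESeq2 called 0.

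For duration, the response of day 29 less that of day 8 had a median of 0.27 in males, with 9 genes at an unadjusted p under 0.05 beside 3.74% of all genes, and of -0.20 in females, with 0 beside 4.93%. DESeq2 called 0 in each sex. Between the experiments at 1000 mkd in males day 8, the response of A less that of B had a median of -0.41 (0.05 under library size only) with 26 genes at an unadjusted p under 0.05 beside 21.9% of all genes, and DESeq2 called 1, beside 6.09%. Ndufb4 had the lowest adjusted p, 0.0649, with 12.4 ± 0.612 CPM in controls and 7.90 ± 2.05 CPM at 1000 mkd in experiment A, and 7.92 ± 0.723 and 8.35 ± 0.631 CPM in experiment B (n = 5 each). Strain supplier, age and time of the experiments differed as well and cannot be told apart.

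Vehicle rats of the 2 sexes were compared from their raw counts in a single fit, with sex and count table inseparable. On day 8, 0 of 72 subunit genes were called by edgeR, with 1 at an unadjusted p under 0.05 beside 23% of all genes, and DESeq2 called 0, beside 13.4%, while by edgeR 4.96% of all genes were higher and 4.89% lower in females. Atp5s (-0.47), Atp5b (0.27) and Cox7b (-0.34) had the lowest p, at adjusted p of 0.141, 0.293 and 0.302. On day 29, 15 of 71 were higher in females and 0 lower, with 6 in complex I, 1 in complex III, 3 in complex IV and 5 in complex V, beside 6.99% of all genes that were higher. The median difference of females against males was 0.29.

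Ndufa8, an accessory complex I subunit of the intermembrane space, averaged 71.9 ± 6.36 CPM in control females and 50.9 ± 4.97 CPM in control males (SD, n = 5), a difference of 0.50 (SE 0.10, adjusted p = 0.00762). Atp5g1 averaged 68.3 ± 7.49 and 46.9 ± 5.54 CPM (0.54, adjusted p = 0.00946), and Uqcr10, a small complex III subunit, 119 ± 10.8 and 83.2 ± 8.91 CPM (0.51, adjusted p = 0.00955). Of the cytosolic ribosome, 25 of 72 genes were higher in females and 0 lower. These values use the same control males as the comparisons of males day 29, in which the treated males stood above them. The count of 15 was 5, 7 and 5 without male control replicate 1, 2 or 3, and 9, 28 and 8 without female control replicate 1, 2 or 5. Here too the shares of all genes called in the smaller fits are not given.

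**Figure D5:**
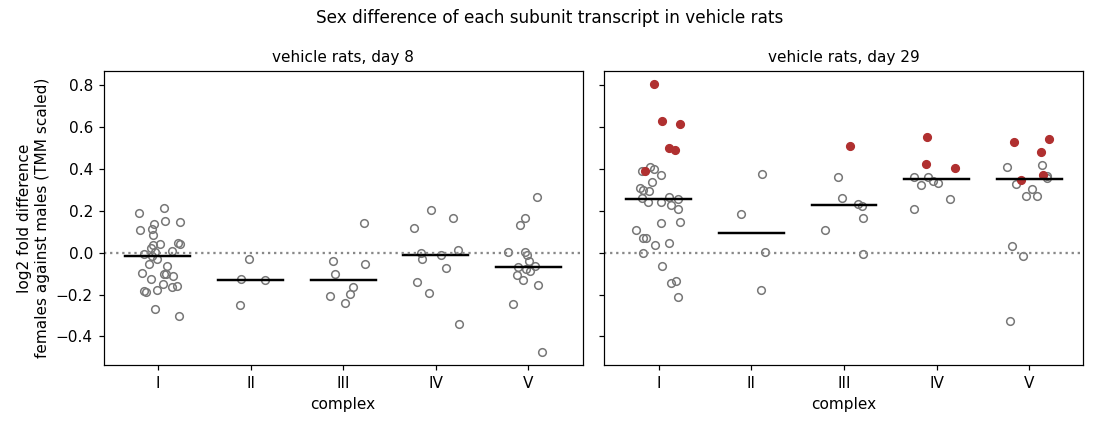
Log2 fold difference of females against males (TMM scaled) of each tested subunit gene in vehicle rats of day 8 and day 29, by complex, with called genes in red and the median of each complex as a line. On day 29, 15 of 71 genes were higher in females, against 0 of 72 on day 8, and the day 29 direction was the same under library size only.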

How the data were processed

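RNA of the left liver lobe of 145 rats was prepared with a stranded mRNA kit and sequenced as single-end reads. The authors trimmed the reads with Trimmomatic, aligned them with Bowtie2 to rat genome Rn6 and counted them on genes with HTSeq (versions not given in the sources used here), and deposited raw counts without normalization in 5 tables. HTSeq summary lines (reads on no single gene), present in the tables of experiment B at 35.5 to 67.1% of a rat's total, entered neither library sizes nor tests, and 0 per-sample columns were left unused.

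The counts of each table, with every group fitted jointly, went into edgeR 4.0.16 (R 4.3.3) for its quasi-likelihood test, after TMM scaling and the package's filter on low counts (minimum 10). Calls required an adjusted p (Benjamini-Hochberg, over all genes tested) of 0.05 or less, and a fold change of at least 1.5 was counted in addition. Adjusted p are from edgeR unless DESeq2 1.42.0, an alternative, is named. Values per rat are CPM on TMM-scaled libraries. Group means in interactions and sex comparisons are from their own fits. Precision is that of 5 rats per group.

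The members and lists were chosen with earlier results of these data known. Named members are, at the highest dose, up to 3 called each way with the lowest adjusted p, that of lowest p in each complex, those passing both criteria at any dose, replaceable isoforms, the Sdh genes, and those of lowest p in interactions and between sexes. Ndufs1, Atp5a1, Ndufa10 and Uqcrc1 outside this rule were named after their values were seen. The values of 1 member that meets this rule are not reported here. Scripts were tested on simulated data.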

Additional observations from a re-analysis of the deposited data

How the results depend on the processing

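The replicate numbers did not pair the rats. Same-numbered rats of different groups deviated together (correlation over 0.1) in 21 of 50 pairs in experiment A and, of 75 each, in 24 and 22 for males of day 8 and 29 and in 23 and 20 for females of day 8 and 29, with values from -0.539 to 0.479. With the number as a replicate block the counts of called subunit genes became 6 and 4 in males day 29 at 750 and 1000 mkd, 10 for their dose trend, 1 in females day 29 at 750 mkd, 1 for the difference between experiments and 5 for the vehicle sexes on day 29, and other counts stayed within 1.5 times.

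With the fold change criterion added, the counts were 16 in experiment A at 1000 mkd, 0 and 0 in males day 29 at 750 and 1500 mkd, and 0 and 4 in females day 29 at 1000 and 1500 mkd. Under library size only they were 11 in experiment A at 1000 mkd and 19 for its trend, 0 and 43 in males day 29 at 750 and 1500 mkd and 58 for the trend, 0 and 2 in females day 29 at 1000 and 1500 mkd and 6 for the trend, 1 for the difference between experiments and 7 for the vehicle sexes on day 29. With DESeq2 they were 1 for the trend of males day 8, 16, 4 and 6 in males day 29 at 750, 1000 and 1500 mkd, 1 in females day 8 at 750 mkd, 2 and 7 in females day 29 at 750 and 1000 mkd, 1 for the sex difference on day 29, 1 between experiments and 28 for the vehicle sexes on day 29. For the 7 and the 28, the share of all genes called by DESeq2 is not given here, so these counts cannot be set against it. Without the low-count filter they were 0 in males day 29 at 750 mkd, 4 for the trend and 1 in females day 29 at 1000 mkd. When no dose group but the tested one was fitted beside the control, they were 21 in experiment A at 1000 mkd, 1, 0, 4 and 0 in males day 29 at 500, 750, 1000 and 1500 mkd, and 0 and 1 in females day 29 at 1000 and 1500 mkd. Without the highest dose the trend counts were 0 in experiment A, 16 for males of day 29, and 1 and 7 for females of day 8 and day 29. Apart from the change of scaling itself and the smaller samples, the cause was not tested. Shares of all genes called under the other alternatives, or with single rats left out, are not printed here. These counts alone therefore say nothing particular to the subunit genes.

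Leaving out single rats gave 23 to 58 in experiment A at 1000 mkd, 0 to 26, 0 to 11 and 0 to 24 in males day 29 at 750, 1000 and 1500 mkd and 2 to 17 for their trend, 0 to 3, 0 to 5 and 5 to 43 in females day 29 at 750, 1000 and 1500 mkd and 12 to 26 for their trend, 0 to 4 between experiments and 5 to 28 for the vehicle sexes on day 29.

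Under library size only these named genes changed sign. In experiment A at 1000 mkd they were Atp5g3 (0.18), Cox4i1 (0.11), Cox4i2 (0.31), Cox6a1 (0.33), Cox7a2 (0.29), Cox8a (0.12), Sdhc (0.28) and Sdhd (0.012). In females day 29 at 1500 mkd they were Atp5g1 (0.079), Atp5g3 (0.23), Cox4i1 (0.0405), Cox6a1 (0.22), Cox7a2l (0.0236), Cox8a (0.057), Ndufa4 (0.0499), Sdhc (0.21) and Sdhd (0.0472), and in females day 8 Atp5b (0.0209) and Uqcrfs1 (0.0043). Leaving out a rat turned the small values of Cox7a2 in females day 29 (-0.0213 to 0.31) and in males day 29 (-0.0592 to 0.21), and of Sdhd in males day 29 (-0.0023 to 0.13).

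No table gives an absolute amount of RNA per cell, so the 2 scalings cannot be ranked from these data. Genes with few counts, such as Cox4i2 and Cox7a2, carry wide errors. With 29 groups examined, 0 held a rat whose mean subunit level stood apart by Dixon's test.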
